A study of Mus musculus with 6 samples.

Results

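Gas5, Snhg1, Snhg3, Snhg5, Snhg6, Snhg8 and Snhg12 are long RNAs that carry small nucleolar RNAs (snoRNAs), Malat1 and Neat1 are long RNAs kept in the nucleus, and Mir17hg is the primary transcript of the miR-17-92 cluster. These 10 genes were taken by symbol from a table of 55401 entries. All 10 passed the filter on low values (a mean of 10 or more) and were tested, among 13180 tested entries. The study measured RNA by sequencing in CD4+ T cells from the spleens of naive wild-type C57BL/6 mice, labelled with the division dye CFSE and cultured for 48 h. The itaconate group (3 libraries) received 5 mM itaconate, a metabolite that activated macrophages make from a Krebs cycle intermediate. The NaCl group (3 libraries) received 5 mM NaCl as the control; its columns are headed NAC, a code the labels do not explain. Cells of both groups were stimulated with antibodies to CD3 and CD28 and with 200 U of IL-2, so all values come from activated cells, and no unstimulated cells enter the comparison. The labels do not say whether the replicates are separate mice or separate cultures, so p-values measure the spread between these libraries, which may be technical.

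The introns of a snoRNA host release snoRNAs, which guide the chemical modification of ribosomal and spliceosomal RNA, and the spliced exons of many noncoding hosts are degraded during translation by nonsense-mediated decay. Many hosts belong to the terminal oligopyrimidine (TOP) class, whose transcripts begin with a C followed by pyrimidines and whose translation follows nutrient and growth signals. NEAT1 is the scaffold on which paraspeckles assemble, MALAT1 gathers in nuclear speckles with splicing factors, and the miR-17-92 miRNAs favour growth and survival of activated lymphocytes by restraining targets that include Bcl2l11.

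The DNA around the start of 6 of the 7 snoRNA hosts was read from RefSeq (GRCm38.p6), to show the TOP-like starts and the TATA boxes that several of these hosts share. Each stretch covers 100 bases of the sense strand, centred on the annotated start. Capitals mark a C followed by at least 4 pyrimidines that begins within 10 bases of the start, and TATAAA or TATATA anywhere in the stretch.
Gas5, chr1:161035116-161035215, + strand: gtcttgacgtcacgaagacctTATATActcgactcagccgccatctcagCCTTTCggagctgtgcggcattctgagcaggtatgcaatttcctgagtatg
Snhg1, chr19:8723437-8723536, + strand: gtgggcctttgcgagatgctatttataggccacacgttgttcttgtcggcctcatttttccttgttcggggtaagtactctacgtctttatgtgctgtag
Snhg3, chr4:132353637-132353736, - strand: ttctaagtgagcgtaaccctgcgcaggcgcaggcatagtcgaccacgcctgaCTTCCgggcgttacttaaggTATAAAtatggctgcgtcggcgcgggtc
Snhg5, chr9:88522848-88522947, - strand: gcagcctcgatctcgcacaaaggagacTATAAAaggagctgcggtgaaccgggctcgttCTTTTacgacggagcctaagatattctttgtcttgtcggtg
Snhg8, chr3:123508287-123508386, - strand: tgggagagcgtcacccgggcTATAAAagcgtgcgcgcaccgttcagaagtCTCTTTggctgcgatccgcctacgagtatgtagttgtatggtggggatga
Snhg12, chr4:132308628-132308727, + strand: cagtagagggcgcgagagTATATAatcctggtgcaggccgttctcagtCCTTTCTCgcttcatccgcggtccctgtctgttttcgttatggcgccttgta
The tract was found in 5 of these 6 hosts, against 30.7% of 32851 mouse promoter entries searched in the same way, and the hexamer was also found in 5 of 6, against 4.81% of entries. Both motifs were chosen after the sequences were seen, and a match is a description of letters. Gas5 has a second annotated start, not printed, with neither motif. In Snhg3 the hexamer lies after the annotated start. The E-box CACGTG, the same on both strands, was in none of the 8 entries of the snoRNA hosts and Malat1, over the 300 bases of an entry (250 before the start and 50 after it), against 7.15% of all entries. The RefSeq entry of Mir17hg begins inside the miRNA cluster rather than at the start of the host RNA, so it was not used.

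The 6 hairpins of the Mir17hg transcript lie on chromosome 14, and 6 of their mature miRNAs are shown. The targets described later come from a list of published targets, and no transcript was searched for matches to these seeds. Capitals mark the seed (bases 2 to 8), the part that pairs with targets.
mmu-miR-17-5p: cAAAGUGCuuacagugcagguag
mmu-miR-20a-5p: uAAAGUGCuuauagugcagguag
mmu-miR-18a-5p: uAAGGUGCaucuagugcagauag
mmu-miR-19a-3p: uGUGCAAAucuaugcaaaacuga
mmu-miR-19b-3p: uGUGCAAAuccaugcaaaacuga
mmu-miR-92a-3p: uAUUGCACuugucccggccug
miR-17-5p and miR-20a-5p share a seed, and so do miR-19a-3p and miR-19b-3p. The mature miRNAs and snoRNAs themselves were not measured: the small-RNA genes annotated inside the 10 loci, 29 entries of snoRNAs and 6 of miRNAs, were under 33 symbols, of which 32 were in the table, listed at 0 in every library. All values below are of the host RNAs.

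With itaconate, Neat1 was 4.58-fold lower than with NaCl, the largest change of the 10, while Malat1, its neighbour on chromosome 19, did not pass the test. The snoRNA hosts did not move as 1 group. Snhg5 and Snhg1 fell, Snhg6 rose, and Gas5, Snhg3, Snhg8 and Snhg12 did not pass. Mir17hg fell. In limma on log2(value + 1), with Benjamini-Hochberg adjusted p-values over the 13180 tested entries and a threshold of 0.05, 5 of 10 passed, 1 higher and 4 lower. Over all tested entries 36.0% passed, 18.2% higher and 17.8% lower. The median log2 fold change of the 10 was −0.32, against −0.000883 over all tested entries. Over the 697 tested annotated long noncoding genes, which include the 10, it was −0.24, with 6.31% higher and 17.5% lower. The groups did not overlap for 5 of the 10, all 5 with the itaconate libraries below, and 48.4% of all tested entries did not overlap, 24.2% with itaconate below. The 5 calls were 3 without itaconate replicate 1, without itaconate replicate 2 or without NaCl replicate 2, and 2 without NaCl replicate 3.

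**Figure D1:**
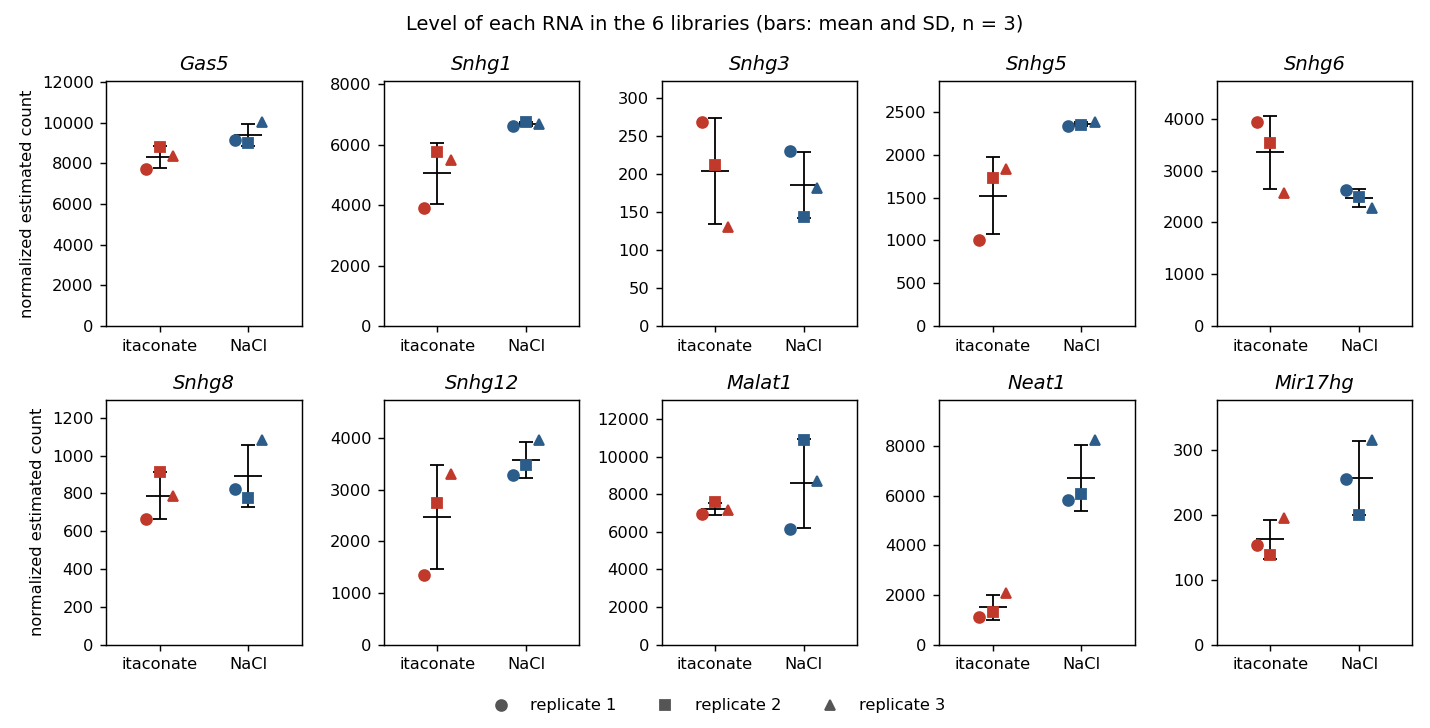
Normalized estimated count (y axis, from 0) of each of the 10 RNAs in the 3 itaconate libraries (red, left) and the 3 NaCl libraries (blue, right), with marker shapes for replicates and bars for mean and SD. The 3 itaconate libraries lie below the 3 NaCl libraries for Gas5, Snhg1, Snhg5, Neat1 and Mir17hg and overlap them for the other 5 RNAs.

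The libraries held 20074299 to 22755248 estimated reads with itaconate and 21015690 to 24144999 with NaCl, so even Snhg3 and Mir17hg, the RNAs with the lowest values, rested on over 100 reads in each library. The CD4+ T-cell markers (7 of 7 tested) summed to 56912 to 59555 normalized estimated counts with itaconate and 49085 to 54972 with NaCl. Of these, 3 were higher (Cd4, Cd3e and Cd28) and 1 lower (Cd3g). Markers of other cells were low. CD8 T-cell markers summed to 308 to 365 with itaconate and 363 to 408 with NaCl, and B-cell markers to 223 to 363 with itaconate and 256 to 378 with NaCl. Myeloid markers (1 of 8 tested) summed to 50.5 to 99.1 with itaconate and 7.03 to 27.0 with NaCl, with Itgam higher (adjusted p = 0.00524) and S100a8 and S100a9 at 0 throughout. NK-cell markers (2 of 4 tested) summed to 215 to 246 with itaconate and 109 to 139 with NaCl. Most of that sum was Eomes, with means of 214 with itaconate and 111 with NaCl, which was higher (adjusted p = 0.00240). Klrk1, the other tested NK-cell marker, did not pass (log2 fold change 0.16, adjusted p = 0.848). Erythroid markers (0 of 5 tested) summed to at most 1.87 with itaconate and 3.01 with NaCl, with Hbb-bt and Hba-a1 at 0. The part of these marker differences in the results was not tested. In these bulk samples, fewer cells of a type and less RNA per cell cannot be told apart.

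Snhg5 (chr9:88521050-88522929, - strand, GRCm38) hosts the U50 snoRNAs and had the lowest fold change of the 7 hosts. It had 1007, 1725 and 1837 normalized estimated counts with itaconate, against 2338, 2349 and 2386 with NaCl. All 3 itaconate libraries lay below the NaCl libraries, with replicate 1 far below the other two, while the NaCl libraries were nearly equal. The mean was 1523 ± 450 with itaconate and 2358 ± 25.2 with NaCl (SD, n = 3 each), a log2 fold change of −0.68 ± 0.18 (SE), adjusted p = 0.00945. Its fall passed the test when any 1 of the 6 libraries was left out, and was smallest without itaconate replicate 1, at −0.41 (adjusted p = 0.00755).

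Snhg1 (chr19:8723475-8726443, + strand) holds 8 annotated snoRNA genes, the U22 and U25 to U31 cluster. It had 3899, 5756 and 5483 normalized estimated counts with itaconate, against 6618, 6755 and 6690 with NaCl. The groups did not overlap, and itaconate replicate 1 was again the lowest library. Snhg1 averaged 5046 ± 1003 with itaconate and 6687 ± 68.5 with NaCl (SD, n = 3 each), a log2 fold change of −0.43 ± 0.12 (SE), adjusted p = 0.0176. Without itaconate replicate 1 the fold change was −0.25 (adjusted p = 0.0493). The call ended without NaCl replicate 2 (adjusted p = 0.0618) and without NaCl replicate 3 (adjusted p = 0.0506).

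Snhg12 (chr4:132308623-132311024, + strand), which hosts Snora16a, Snora44, Snora61 and Snord99, did not pass. It had 1343, 2752 and 3311 normalized estimated counts with itaconate, against 3288, 3488 and 3957 with NaCl. Itaconate replicate 3 lay just above the lowest NaCl library, so the groups overlapped, and itaconate replicate 1 was the lowest by a wide margin. The means were 2469 ± 1014 with itaconate and 3577 ± 343 with NaCl (SD, n = 3 each), a log2 fold change of −0.63 ± 0.24 (SE), adjusted p = 0.0583. The fold change was −0.24 without itaconate replicate 1, and −0.89 with a passing adjusted p of 0.00471 without itaconate replicate 3.

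Gas5 (chr1:161034422-161038539, + strand), named for its accumulation in growth-arrested cells, holds 10 annotated snoRNA entries (Snord80 is entered more than once), the most of the 7. It had 7740, 8820 and 8346 normalized estimated counts with itaconate, against 9124, 9008 and 10035 with NaCl. The groups were adjacent but did not overlap. The log2 fold change was −0.18 ± 0.085 (SE), adjusted p = 0.121, so Gas5 did not pass. Snhg8 (chr3:123507552-123508404, - strand), host of a single snoRNA, had 665, 911 and 786 with itaconate, against 824, 774 and 1080.2 with NaCl. Its groups overlapped, with a log2 fold change of −0.18 ± 0.15 (SE) and an adjusted p of 0.384.

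Snhg6 (chr1:9941959-9944118, - strand), host of a single snoRNA, moved the other way. It had 3939, 3539 and 2568 normalized estimated counts with itaconate, against 2622, 2496 and 2281 with NaCl. Itaconate replicates 1 and 2 lay above all NaCl libraries, and replicate 3 fell within the NaCl range. Its means were 3349 ± 705 with itaconate and 2466 ± 172 with NaCl (SD, n = 3 each), a log2 fold change of 0.42 ± 0.14 (SE), adjusted p = 0.0279. Snhg6 no longer passed when itaconate replicate 1 (adjusted p = 0.109), itaconate replicate 2 (0.112), NaCl replicate 2 (0.0741) or NaCl replicate 3 (0.103) was left out. An exon of Mcmdc2, a meiosis gene on the opposite strand that was too low to be tested, shares 127 bases with Snhg6, and the strand setting of the counting is not given, so the assignment of those reads is uncertain.

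Snhg3 (chr4:132348014-132353686, - strand), host of the U17 snoRNAs, had the lowest level per kilobase of the 7 hosts. It had 268, 212 and 130.4 normalized estimated counts with itaconate, against 229.7, 143 and 182 with NaCl. The groups overlapped over nearly their whole range. The log2 fold change was 0.10 ± 0.26 (SE), adjusted p = 0.790, and it turned to −0.13 without itaconate replicate 1 and to −0.07 without NaCl replicate 2. Snhg3 shares 135 exonic bases with Rcc1 on the same strand and 705 with Gm17300 on the opposite strand, so its value is uncertain. Rcc1, the exchange factor of the GTPase Ran, had a log2 fold change of 0.02 (adjusted p = 0.900), with a sign that turned under 2 rescalings, and Gm17300 had 0.32 (adjusted p = 0.499).

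Ratios between hosts were compared within libraries, for pairs chosen after their values were seen. The ratio of Snhg6 to Snhg5 was 3.91, 2.05 and 1.40 with itaconate, against 1.12, 1.06 and 0.956 with NaCl. Every itaconate ratio lay above every NaCl ratio, and the log2 ratio of Snhg5 to Snhg6 was 1.10 lower with itaconate (a difference of −1.10, exact two-sided permutation p = 0.1, the smallest that 3 against 3 libraries allow). Snhg1 relative to Gas5 was lower with itaconate by a difference of −0.25 on the log2 scale (exact permutation p = 0.1). Its log2 ratios were −0.989, −0.616 and −0.606 with itaconate, against −0.463, −0.415 and −0.585 with NaCl. The groups nearly touched, and itaconate replicate 1 lay furthest from the NaCl libraries. Snhg12 relative to Snhg6 differed by −1.05, with groups that overlapped (exact permutation p = 0.2). Itaconate replicate 1 was the lowest itaconate library for 7 of the 10 RNAs. The share of all tested entries for which it was the lowest was not computed. As a description over the 6 libraries, deviations from the group means of log2(value + 1) were correlated between some pairs of the 10 RNAs. The r was 0.98 between Snhg1 and Snhg5 and between Snhg5 and Snhg12, and −0.83 between Snhg6 and Snhg12. High values were not limited to the hosts that fell. Gas5 and Snhg8, which did not pass, had r = 0.99, and Snhg6 and Neat1 had r = −0.97. These points share the library, and the lowest library of the falling hosts was the highest for Snhg6. The 7 hosts together made up 0.0886%, 0.110% and 0.107% of the normalized total with itaconate, against 0.117%, 0.115% and 0.121% with NaCl.

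**Figure D2:**
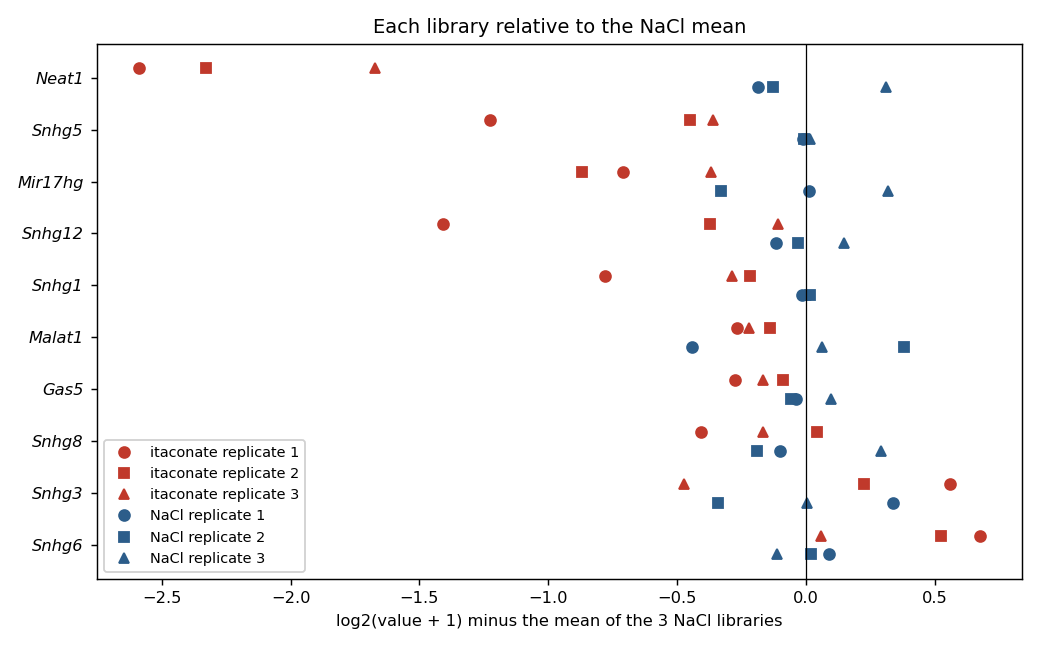
Value of each library on the log2(value + 1) scale minus the mean of the 3 NaCl libraries (x axis), for the 10 RNAs ordered by fold change, with itaconate libraries in red above NaCl libraries in blue. Itaconate replicate 1 (red circle) stands far to the left for Snhg5, Snhg12 and Snhg1 and to the right for Snhg6, and the Neat1 libraries of the 2 groups are far apart.

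A further list of noncoding snoRNA hosts held 18 genes, of which 12 were tested. Of these, 3 fell, 0 rose and 9 did not pass, with a median log2 fold change of −0.04. The list also held Rpph1 and Rmrp, the RNA parts of RNase P and RNase MRP, which are not hosts. Snhg16 had 542, 1146 and 1336 normalized estimated counts with itaconate, against 1396, 1470.4 and 1743 with NaCl, again with replicate 1 lowest and no overlap (log2 fold change −0.70 ± 0.25, adjusted p = 0.0438). 2410006H16Rik (−0.47 ± 0.16, adjusted p = 0.0384) and Snhg17 (−0.40 ± 0.13, adjusted p = 0.0261) were the other two that fell. Epb41l4aos (0.36, adjusted p = 0.0817) and Dancr (0.49, adjusted p = 0.141) had positive fold changes that did not pass. Epb41l4aos passed without itaconate replicate 3 (0.0165) or NaCl replicate 3 (0.0294). Without itaconate replicate 1 the fold changes of Snhg16 and 2410006H16Rik were −0.31 (adjusted p = 0.0849) and −0.27 (adjusted p = 0.141). The list had 0 calls without itaconate replicate 1, 1 lower call without itaconate replicate 2, NaCl replicate 1 or NaCl replicate 2, and no lower call without NaCl replicate 3, where the 1 call was the rise of Epb41l4aos. Snhg16 also missed the threshold with no filter (adjusted p = 0.0658), without the intensity trend (0.184) and with robust variances (0.207). 2410006H16Rik missed it in the same settings (adjusted p = 0.0626, 0.170 and 0.0924) and under quantile normalization (0.124). Snhg17 missed it without the intensity trend (0.0813).

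Of 24 tested protein-coding snoRNA hosts, 5 rose, 4 fell and 15 did not pass, with a median of 0.07. These shares are near those over all tested entries (18.2% higher and 17.8% lower), and the counts of the lists below are likewise to be set against them. Eif4a2, a translation initiation helicase, had 12189, 12821 and 11718 normalized estimated counts with itaconate, against 6735, 8383 and 7809 with NaCl, with no overlap (log2 fold change 0.68 ± 0.093, adjusted p = 0.00014). The translation factor gene Eif4g2 fell (−0.48 ± 0.088, adjusted p = 0.00119). So did Hspa9, a mitochondrial chaperone gene (−0.48 ± 0.10, adjusted p = 0.00356), and Nop58, which codes for a core protein of box C/D snoRNPs (−0.53 ± 0.11, adjusted p = 0.00286). Eif4a1 (−0.27, adjusted p = 0.0535) and Rps12 (0.22, adjusted p = 0.0600) did not pass, and Eif4a1 passed without itaconate replicate 1 (adjusted p = 0.00765). Under quantile normalization the fold changes of Eif4g2 and Hspa9 were both −0.28 and still passed.

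**Figure D3:**
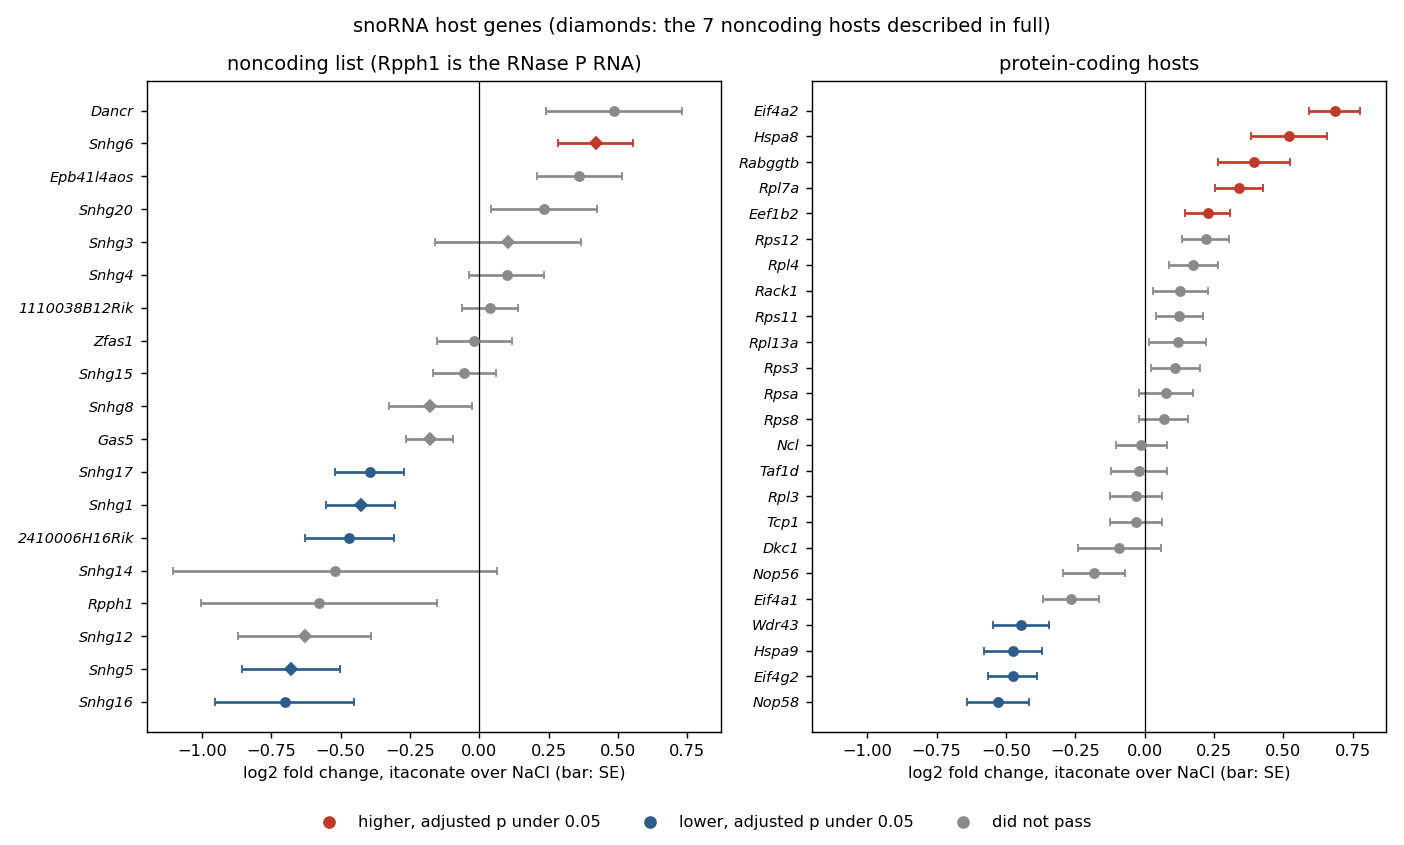
Log2 fold change with SE (x axis, itaconate over NaCl) of tested noncoding snoRNA hosts (left; diamonds are the 7 hosts described first) and protein-coding hosts (right). Red points rose, blue points fell and grey points did not pass. Of the 7 diamonds, Snhg6 is red, Snhg1 and Snhg5 are blue and the other 4 are grey, and both colours appear among the protein-coding hosts.

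The proteins that package snoRNAs were tested as a list of 18. None rose, 5 fell and 13 did not pass, with a median of −0.16. Those that fell were Nop58, Naf1 (−0.56 ± 0.14, adjusted p = 0.00740), Gar1 (−0.68 ± 0.23, adjusted p = 0.0373), Pih1d1 (−0.43 ± 0.13, adjusted p = 0.0211) and Ruvbl2 (−0.34 ± 0.11, adjusted p = 0.0358). Naf1 and Gar1 act in box H/ACA particles, and Pih1d1 and Ruvbl2 are assembly factors. Gar1 alone of these had groups that overlapped. The core protein genes Nop56 (−0.18), Fbl (−0.13) and Dkc1 (−0.09) did not pass. Znhit6 (−0.72, adjusted p = 0.0541) and Ruvbl1 (−0.32, adjusted p = 0.152) also missed the threshold. Znhit6 passed without itaconate replicate 1 (0.0238) or 3 (0.0283), and Ruvbl1 without itaconate replicate 1 (0.0164). The count of 5 was 2 without itaconate replicate 2 or NaCl replicate 3, and 3 without NaCl replicate 1 or 2. The call of Pih1d1 ended without any 1 library but itaconate replicate 3 and NaCl replicate 1 (highest adjusted p = 0.0832), and that of Ruvbl2 without any 1 library but itaconate replicate 1 (highest adjusted p = 0.151).

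Of 18 tested factors of nonsense-mediated decay, 2 rose, 1 fell and 15 did not pass, with a median of −0.09. Upf1, the central helicase of the pathway, had 3822, 3733 and 2892 normalized estimated counts with itaconate, against 2247, 2081 and 2298 with NaCl, with no overlap (log2 fold change 0.65 ± 0.11, adjusted p = 0.000701). Upf3b, which links UPF1 to the exon junction, also rose (0.53 ± 0.12, adjusted p = 0.00368). Rbm8a, a component of the exon junction complex, fell (−0.45 ± 0.11, adjusted p = 0.00647). Rnps1 (−0.21, adjusted p = 0.0729) and Eif4a3 (−0.22, adjusted p = 0.0807) did not pass.

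Neat1 (chr19:5824708-5845478, - strand) had the largest change. It had 1099.9, 1319 and 2080.5 normalized estimated counts with itaconate, against 5822, 6072 and 8227 with NaCl. The highest itaconate library held less than the lowest NaCl library by a wide margin. The means were 1499.8 ± 515 with itaconate and 6707 ± 1322 with NaCl (SD, n = 3 each), a 4.58-fold lower level (log2 fold change −2.20 ± 0.19 SE, adjusted p = 6.82e-06). It passed under every limma alternative tried (exact permutation p = 0.1, the smallest possible), and its fold change stayed between −2.459 and −1.999 when any 1 library was left out. Neat1 ranked 191 from the lowest fold change among 13180 tested entries and 34 among 697 tested annotated long noncoding genes. Of those 697 genes, 44 rose (6.31%) and 122 fell (17.5%), with a median of −0.24.

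Malat1 (chr19:5795690-5802672, - strand) lies 22036 bases from Neat1 on the same strand. It had 6931, 7588 and 7159 normalized estimated counts with itaconate, against 6142, 10870.3 and 8712 with NaCl. The itaconate libraries lay inside the NaCl range, which was the wider. The log2 fold change was −0.21 ± 0.16 (SE), adjusted p = 0.320, so Malat1 did not pass. Gm37376, on the opposite strand and too low to be tested, shares 453 exonic bases with Malat1, so the assignment of reads there is uncertain. Without NaCl replicate 1, its lowest control library, the fold change was −0.43 and passed (adjusted p = 0.00990), and without NaCl replicate 2, its highest, it was −0.02 (adjusted p = 0.932). The ratio of Neat1 to Malat1 within a library was 0.159, 0.174 and 0.291 with itaconate, against 0.948, 0.559 and 0.944 with NaCl. The ratios did not overlap, with a difference of −1.99 on the log2 scale (exact two-sided permutation p = 0.1, the smallest possible).

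Paraspeckle protein genes did not move as a body. Of 18 tested, 5 fell, 2 rose and 11 did not pass, with a median of 0.03. Sfpq, required for paraspeckles to form, had 3539.7, 3249 and 3419 normalized estimated counts with itaconate, against 6422, 4928 and 4819 with NaCl (log2 fold change −0.65 ± 0.11, adjusted p = 0.000603). All itaconate libraries lay below all NaCl libraries. Sfpq's relative Pspc1 fell (−0.55 ± 0.14, adjusted p = 0.00994), and so did Rbm3, a cold-inducible RNA-binding protein gene (−0.26 ± 0.078, adjusted p = 0.0198). Nono, the partner of SFPQ, did not pass (0.13, adjusted p = 0.205), nor did Cpsf7 (0.23, adjusted p = 0.0625) and Smarca4 (0.17, adjusted p = 0.134). The count of 7 calls was 3 without itaconate replicate 1 or 2 and 4 without NaCl replicate 3. The call of Pspc1 ended without itaconate replicate 2 (adjusted p = 0.0555), that of Rbm3 without itaconate replicate 1 (0.0610) or NaCl replicate 1 (0.0593) and under quantile normalization (−0.13, adjusted p = 0.182), and Cpsf7 passed without itaconate replicate 3 (0.0369).

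Of 20 tested nuclear speckle genes, 6 rose, 4 fell and 10 did not pass, with a median of 0.06. The speckle matrix gene Srrm1 rose (0.43 ± 0.079, adjusted p = 0.00122), as did Clk1 (0.55 ± 0.13, adjusted p = 0.00441), a kinase that phosphorylates SR splicing factors. The SR protein genes Srsf2 (−0.53 ± 0.095, adjusted p = 0.000938) and Srsf6 (−0.38 ± 0.094, adjusted p = 0.00789) fell, and Srsf3 (−0.26, adjusted p = 0.0987) and Srsf4 (0.18, adjusted p = 0.102) did not pass. Without itaconate replicate 2 the count of 10 calls was 5, and Srsf3 passed without NaCl replicate 3 (0.0360). Among 14 tested genes of RNase P, RNase Z and RNA methylation, which act on the ends and stability of MALAT1 and NEAT1, 1 fell, 0 rose and 13 did not pass, with a median of −0.13. The RNase P subunit gene Rpp38 was the one that fell (−1.0005 ± 0.22, adjusted p = 0.00367). Pop7 (−0.50, adjusted p = 0.0625) and Pop5 (0.28, adjusted p = 0.0780) did not pass, and Pop7 passed without NaCl replicate 2 (0.0140).

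**Figure D4:**
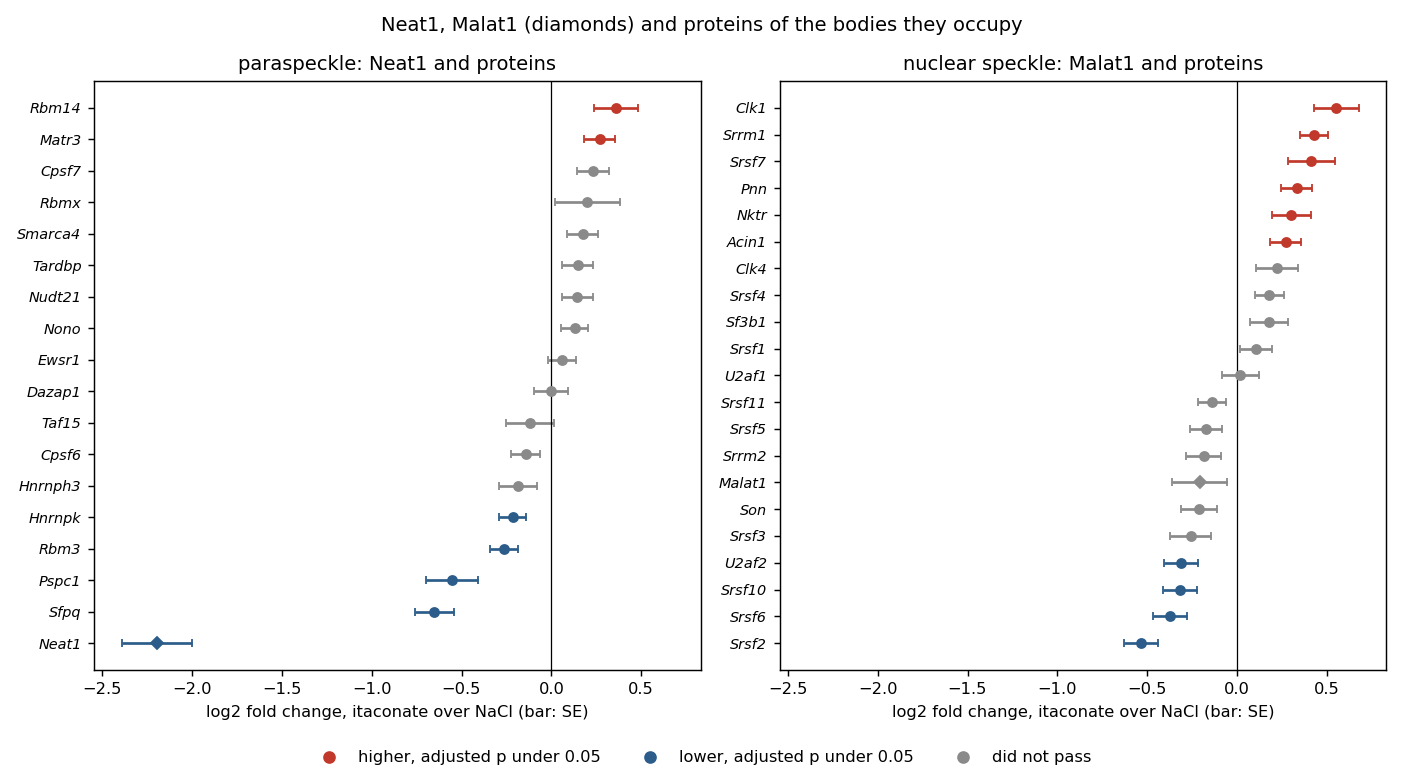
Log2 fold change with SE (x axis, itaconate over NaCl) of Neat1 (diamond) with paraspeckle protein genes (left) and Malat1 (diamond) with nuclear speckle protein genes (right). Red points rose, blue points fell and grey points did not pass. Neat1 lies at −2.20, below every protein gene shown in its panel, the lowest of which is Sfpq at −0.65.

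Mir17hg (chr14:115042879-115046727, + strand) had 153, 137 and 195 normalized estimated counts with itaconate, against 254, 199.9 and 314 with NaCl. The groups did not overlap, but the highest itaconate library came close to the lowest NaCl library. The means were 162 ± 29.7 with itaconate and 256 ± 57.1 with NaCl (SD, n = 3 each), a log2 fold change of −0.65 ± 0.21 (SE), adjusted p = 0.0283. Mir17hg no longer passed when itaconate replicate 1 (adjusted p = 0.0623), itaconate replicate 2 (0.110), NaCl replicate 1 (0.0673) or NaCl replicate 3 (0.135) was left out.

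The list of other miRNA host RNAs had 4 tested genes, of which 3 fell, 0 rose and 1 did not pass, with a median of −1.05. These figures include Mirt1, which is not a miRNA host. They leave out the miRNA host Dleu2, which was on another list and rose (0.55, adjusted p = 0.00969). Mir155hg, the precursor RNA of miR-155 and induced in activated lymphocytes, had 225, 215 and 258 normalized estimated counts with itaconate, against 551, 467 and 489 with NaCl, with no overlap (log2 fold change −1.11 ± 0.14, adjusted p = 0.000104). Mir22hg fell too (−0.999 ± 0.26, adjusted p = 0.0104), a call that ended without NaCl replicate 2 (0.0595). Mirt1 (−2.14 ± 0.29, adjusted p = 0.00014), which was also on the list, is a long RNA named for myocardial infarction and is not a miRNA host. Mir142hg did not pass (−0.12, adjusted p = 0.819).

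The MYC, E2F and MXD factors, of which MYC and E2F proteins bind and activate the human MIR17HG promoter and MXD proteins compete with MYC for MAX, were tested as a list of 11. Of these, 5 rose, 2 fell and 4 did not pass, with a median of −0.03. Myc had 4678, 4671 and 5972 normalized estimated counts with itaconate, against 7134, 6900.3 and 8344 with NaCl, with no overlap (log2 fold change −0.55 ± 0.11, adjusted p = 0.00211). E2f4 fell (−0.46 ± 0.095, adjusted p = 0.00236). Those that rose were E2f2 (0.90 ± 0.10, adjusted p = 5.05e-05) and 4 genes of repressors that pair with MAX: Mxd3 (1.24 ± 0.16, adjusted p = 0.000102), Mxd4 (0.87 ± 0.10, adjusted p = 5.56e-05), Mxd1 (0.58 ± 0.095, adjusted p = 0.000559) and Mnt. E2f1 (−0.29, adjusted p = 0.204) and E2f3 (−0.30, adjusted p = 0.0935) did not pass. Without itaconate replicate 3, both E2f1 (adjusted p = 0.0471) and E2f3 (0.0459) passed, and E2f1 also passed without NaCl replicate 1 (0.0443).

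Of 15 tested genes listed as targets of the cluster's miRNAs, 7 rose, 2 fell and 6 did not pass, with a median of 0.29, against −0.000883 over all tested entries. Bcl2l11, which codes for the death-promoting protein BIM, had 2284, 3187 and 2673 normalized estimated counts with itaconate, against 1066, 1174 and 985 with NaCl, with no overlap (log2 fold change 1.33 ± 0.12, adjusted p = 9.65e-06). The nuclear receptor gene Rora rose too (0.95 ± 0.19, adjusted p = 0.00223), as did Phlpp1, Smad4, Rbl2 and Rbl1. Those that fell were Hif1a (−0.66 ± 0.13, adjusted p = 0.00234), which codes for the oxygen-sensitive subunit of HIF, and Cdkn1a, the gene of the cell-cycle inhibitor p21. Phlpp2 (0.29, adjusted p = 0.162) and Itch (−0.20, adjusted p = 0.173) did not pass.

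**Figure D5:**
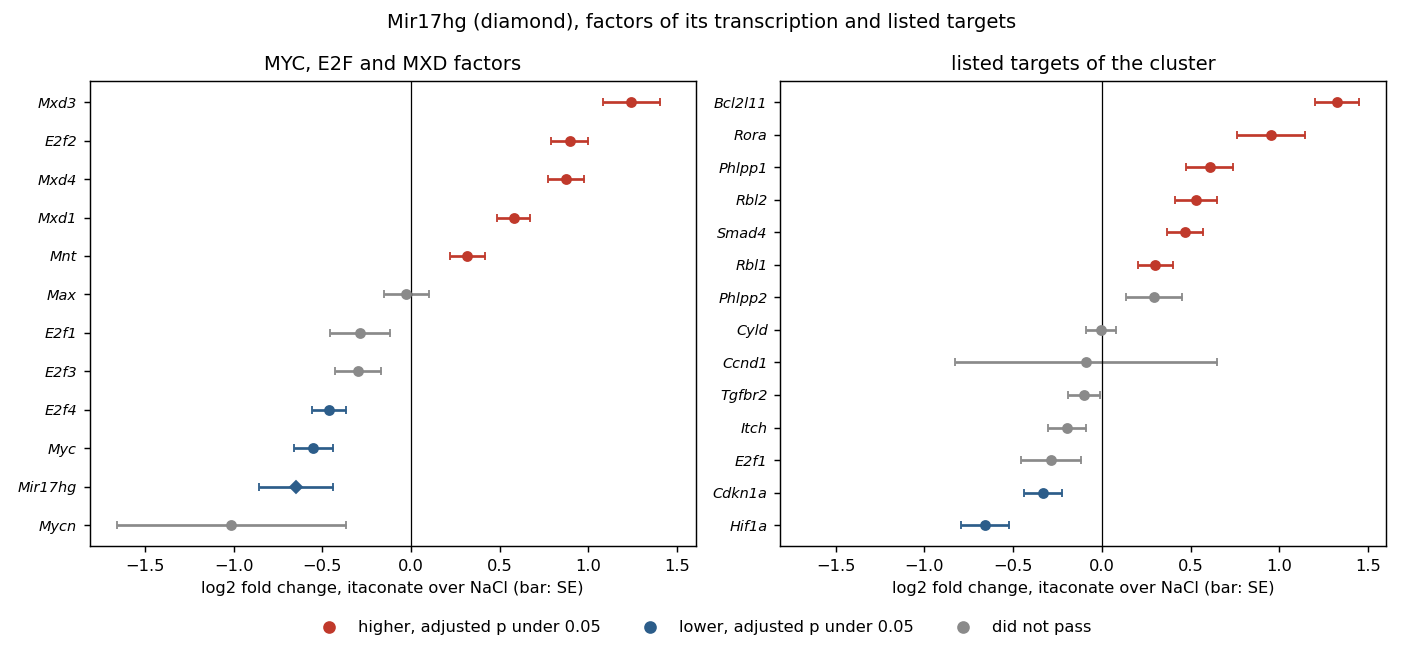
Log2 fold change with SE (x axis, itaconate over NaCl) of Mir17hg (diamond) with MYC, E2F and MXD factor genes (left) and of listed targets of its miRNAs (right). Red points rose, blue points fell and grey points did not pass. Mir17hg lies at −0.65 beside Myc at −0.55, and Bcl2l11 at 1.33 is the highest of the targets.

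Among other nuclear or long noncoding RNAs, 12 were tested: 2 rose, 2 fell and 8 missed the threshold, with a median of −0.32. Dleu2, the host of miR-15a and miR-16, rose (0.55 ± 0.14, adjusted p = 0.00969), and so did 2900097C17Rik (0.34 ± 0.091, adjusted p = 0.0113). Oip5os1, the RNA known as Cyrano, fell (−0.55 ± 0.13, adjusted p = 0.00515). Lars2, which fell as well (−0.56 ± 0.16, adjusted p = 0.0134), is a protein-coding gene of a mitochondrial tRNA synthetase that was on the list. Tug1 (0.22, adjusted p = 0.0900) and Jpx (−0.74, adjusted p = 0.115) did not pass. The call of 2900097C17Rik ended without itaconate replicate 2 (0.0715) and that of Lars2 without NaCl replicate 3 (0.0701), and Tug1 passed without itaconate replicate 1 (0.0312).

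The nearest tested genes on each side differed from the members in several cases. Frmd8, 4224 bases from Neat1, rose while Neat1 fell, with 5047 ± 90.6 normalized estimated counts with itaconate and 3113 ± 263 with NaCl (SD, n = 3 each; log2 fold change 0.70 ± 0.087, adjusted p = 7.52e-05). Slc3a2, the heavy chain of the CD98 amino acid transporter, starts 106 bases from Snhg1 on the opposite strand and also fell (−0.57 ± 0.097, adjusted p = 0.000656). The log2 ratio of Snhg1 to Slc3a2 was −0.88, −0.02 and −0.11 with itaconate, against −0.59, −0.36 and −0.51 with NaCl. It differed by 0.15, with groups that overlapped (exact permutation p = 0.7). Itaconate replicate 1 was the lowest itaconate library for Snhg1 (3899) and the highest for Slc3a2 (7155), so they did not move together within that group. Sgk3, next to Snhg6, rose (1.11 ± 0.25, adjusted p = 0.00470). Serpinc1, next to Gas5, rose (1.15 ± 0.31, adjusted p = 0.0117). Zfp949, next to Snhg5, rose (0.49 ± 0.14, adjusted p = 0.0157), and Tgds, 3065184 bases from Mir17hg, fell (−0.33 ± 0.11, adjusted p = 0.0335). The call of Zfp949 ended without itaconate replicate 1 (0.0513), itaconate replicate 2 (0.0608) or NaCl replicate 3 (0.0541). That of Tgds ended without any 1 library but NaCl replicate 2 (highest adjusted p = 0.120). Other nearest genes that did not pass included Trnau1ap, Phactr4, Syncrip, Cops5, Prss12, Gm4617, Rab42 and Tpm3-rs7, and neither did Zbtb37, which overlaps Gas5 on the opposite strand without shared exons (0.08, adjusted p = 0.683). Wdr74, next to Snhg1, also missed the threshold (−0.39, adjusted p = 0.0661), and passed without itaconate replicate 1 (0.0488) or NaCl replicate 2 (0.0395).

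Levels were compared between the 10 RNAs per kilobase of mean spliced transcript length. That length leaves out transcripts annotated as retained introns, which are 20 of 25 for Gas5 and 14 of 18 for Snhg1. For Malat1 it was 2170 bases, against 6983 annotated exonic bases, and for Neat1 6379, against 20771. The levels therefore depend on the length chosen. Gas5 was highest in both groups, at 16604.5 ± 1082 normalized estimated counts per kilobase with itaconate and 18778 ± 1124 with NaCl (SD, n = 3 each). With itaconate the order went on with Snhg1, Snhg6, Malat1, Snhg12, Snhg5, Snhg8, Snhg3, Neat1 and Mir17hg. In that group the ranges of Malat1 and Snhg12, of Snhg12 and Snhg5, of Snhg5 and Snhg8, and of Snhg3 and Neat1 overlapped. With NaCl the order was the same except that Neat1 stood above Snhg3, and only the ranges of Snhg6 and Malat1 and of Malat1 and Snhg12 overlapped between neighbours in it. Neat1 had 235 ± 80.7 per kilobase with itaconate and 1051 ± 207 with NaCl, and Mir17hg, the lowest, 45.8 ± 8.40 with itaconate and 72.4 ± 16.2 with NaCl. Per kilobase of all annotated exonic bases, the order differed, and Snhg6 stood first with itaconate with a range that overlapped that of Gas5.

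The genes whose profile over the 6 libraries was most like each RNA were taken from 9512 tested genes with a mean of at least 100, by Pearson's r of log2(value + 1), as a description. For Neat1 these were Cd2 (r = 0.999), Mcf2l (0.999) and Ddost (0.999), among 660 genes with r above 0.95. For Mir17hg they were Adat1 (0.994), Chmp6 (0.993) and Smim19 (0.989), among 70 such genes. For Malat1 they were Tmub1 (0.981), Ercc4 (0.981) and Laptm4a (0.981), among 10 such genes. For the mean profile of the 7 snoRNA hosts they included Mafg (0.980) and Josd2 (0.973), among 9 such genes. How many genes would pass this r by chance with 6 libraries was not computed. None of the 5 genes named here for Malat1 and the host profile passed the test between the groups.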

How the data were processed

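RNA was measured by sequencing in 6 libraries, 3 of cells cultured with itaconate and 3 with NaCl, grouped by their titles. The authors deposited these as 1 table by gene symbol, whose signal values are normalized estimated counts. The submitters' processing notes name mm10, STAR 2.7.0f and RSEM 1.3.0. For the annotation, the scaling tool and the strand setting, nothing is given in the sources used here. The column code NAC was read as the NaCl arm, the other treatment in the labels, which do not explain the code, and what the control values are depends on that reading. Between 80.0% and 82.0% of values per library came out as whole reads (tolerance 0.02 reads), and 100% as hundredths of a read. The values are therefore estimated counts with fractions, and no count model was used. Each normalized value is relative to the rest of its library, and RSEM can divide reads between near-identical copies.

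Entries with a mean of at least 10 were fitted as log2(value + 1) with limma 3.58.1 (R 4.3.3), letting the variance follow intensity and using no covariate. Tests were two-sided, and p-values were adjusted by the Benjamini-Hochberg method across the 13180 entries, with a threshold of 0.05. Fold changes are on the log2(value + 1) scale, itaconate over NaCl. The procedure was tested on simulated data. Ratios were compared by exact permutation of the 6 libraries. Positions, lengths and overlaps come from GENCODE M21 (GRCm38) and sequences from RefSeq (GRCm38.p6). The members and lists were chosen with earlier results of these data known, and their counts are descriptions. Of each list, up to 4 genes with the smallest p among those that passed and up to 2 others were named, with the nearest tested gene on each side of a member. Genes of a list named beyond this rule were chosen after their values were seen. Some genes of the lists, neighbours and profiles are not reported here, though counts over a list include them. A list of histone genes was not used, since 0 of its 16 symbols matched. Alternatives were the pseudocount, the filter, 3 rescalings, the replicate block, the variance model and leaving out each library.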

Additional observations from a re-analysis of the deposited data

How the results depend on the processing

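The 5 calls among the 10 RNAs were 5 or 6 under other pseudocounts (0.1 and 10), filters, rescalings and robust variances, and 1 (Neat1) without the intensity trend, where Snhg5 had an adjusted p of 0.0862, Snhg1 of 0.106, Snhg6 of 0.130 and Mir17hg of 0.0700. Leaving out 1 library gave 2 to 6 calls among the 10 and 3478 to 4998 calls over all genes, against 4741 with all libraries. Upper-quartile rescaling moved the median of all genes to −0.05, split the calls over all genes into 2086 higher and 2586 lower, against 2400 higher and 2341 lower as deposited, and let Snhg12 pass (adjusted p = 0.0460). Whether the replicate numbers pair the libraries is not stated in the labels. Deviations of same-numbered libraries correlated weakly, at 0.146, 0.0383 and 0.128. Each library correlated best with its own number, which is a hint of pairing from the data only. With the replicate block 6 of the 10 passed (Snhg12 in addition, adjusted p = 0.00692), and 5636 genes in all. None of the 10 RNAs and of the other named genes that were refitted changed sign where it had passed. Of the genes that did not pass, the sign of Rcc1 turned under upper-quartile rescaling (−0.0217) and quantile normalization (−0.00767). When 1 library was left out, Rcc1 ranged from −0.10 to 0.10, Snhg3 from −0.13 to 0.39, Gm4617 from −0.13 to 0.29, Cops5 from −0.13 to 0.0399, Syncrip from −0.14 to 0.0156, Zbtb37 from −0.0375 to 0.21 and Mir142hg from −0.29 to 0.0636. Of 74 other named genes that were refitted, 41 passed. Of these, 26 kept the call in each of the 16 alternatives that tested them. Calls of further genes named in the text were not followed through the alternatives. These include Myc, E2f4, Mnt, Gar1, Phlpp1, Smad4, Rbl1, Rbl2 and Cdkn1a. Among these alternatives, median-ratio rescaling had a factor of 1 in every library, so it repeated the main fit and could change no call. Without the intensity trend, calls fell to 2 of 18 for paraspeckle genes, 3 of 20 for nuclear speckle genes, 2 of 18 for snoRNP genes, 0 of 12 for the further noncoding hosts and 2 of 12 for other long noncoding RNAs. The further hosts had 1 call with no filter or robust variances. The snoRNP genes had 3 calls with no filter and 8 with the block, decay factors 5 with quantile normalization and 6 with the block, and the RNase P list 2 with upper-quartile rescaling and 3 with the block. The cause of these changes was not tested. With 3 libraries a group, exact permutation cannot go below 0.1 for a single gene.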
